A study of Mus musculus with 5 samples.

Results

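Fibronectin and the matricellular proteins were followed in murine lung cancer-associated fibroblasts (CAFs) with and without miR-200. The genes were chosen by name as *Fn1*, *Tnc*, *Postn*, *Sparc*, *Thbs1*, *Thbs2*, *Spp1*, *Tgfbi*, *Ccn4* and *Ccn5*, which are 10 of the 21835 genes in the deposited table. They and the lists of related genes below were chosen with earlier results of these data known. Their counts beside the share of all genes are descriptions only, because the choice alone could raise them. RNA was available from 2 samples of CAFs labelled WT control (CAF-vec, transduced with the empty lentiviral vector) and from 3 samples of CAFs transduced with a lentivirus carrying the miR-200b, miR-200a and miR-429 cluster (CAF-200). All samples were cultured lung CAFs of *Mus musculus* carrying a lentiviral vector, grown in alpha-MEM with serum, and the labels name G418 as the selection. The labels give no strain, age or sex, and they do not say whether the samples of a group were separate transductions or cultures, so *p* values measure only the spread between these samples. The study's methods instead name a vector with hygromycin resistance that was introduced into lung fibroblasts, and they describe RNA in triplicate, whereas 2 CAF-vec samples were analysed here. The comparison addressed how gene expression in CAFs differs when miR-200 is raised, and the level of miR-200 itself was not analysed here.

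Fibronectin is a large glycoprotein that fibroblasts assemble into fibrils through integrins, and other matrix proteins are laid down on that scaffold. Matricellular proteins are secreted into the same matrix, but they act mainly by binding cell surface receptors, growth factors and proteases rather than by bearing load. Tenascin-C, periostin, thrombospondins, SPARC and osteopontin are known for being deposited in healing wounds and in tumor stroma, where CAFs are a source of them. MicroRNAs lower the RNA or the translation of messages whose 3′-UTRs pair with their seed, and miR-200 is best known for its repression of *Zeb1* and *Zeb2*.

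The sequences of the overexpressed microRNAs are shown because their seeds decide which of the 10 messages carry a match. They are the RefSeq mature sequences of GRCm38.p6, all from the minus strand of chromosome 4, with the seed (bases 2 to 8) in capitals.
miR-200b-3p, chr4:156055685-156055706: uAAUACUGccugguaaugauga
miR-429-3p, chr4:156053916-156053937: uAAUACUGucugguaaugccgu
miR-200a-3p, chr4:156054911-156054932: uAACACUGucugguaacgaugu
miR-200b and miR-429 share 1 seed, and miR-200a has another. In the longest annotated 3′-UTR of each gene (GENCODE M21, GRCm38), 2 of the 10 genes held a 7-base match to either seed (CAGTATT or CAGTGTT, sense strand of the message only), against 30.3% of the 12055 tested genes with an annotated 3′-UTR. *Fn1* held 1 match to each seed and *Thbs2* held 1 match to the seed shared by miR-200b and miR-429, and these 3 windows follow in the sense of the message with the match in capitals.
Fn1, miR-200b and miR-429 match at base 532 of 692, chr1:71585674-71585680, minus strand: tcaatttttccCAGTATTtttatacggaa
Fn1, miR-200a match at base 243 of 692, chr1:71585963-71585969, minus strand: tcagtactgctCAGTGTTgtttaagagaa
Thbs2, miR-200b and miR-429 match at base 328 of 2013, chr17:14667179-14667185, minus strand: gtaattacttgCAGTATTtatgtgtatat
None of the 3 matches is followed by an A in the message. The 7-base match to the miR-200b seed stood in the 3′-UTRs of 15.8% of the tested genes and that to the miR-200a seed in 20.8%. The other 8 genes, with longest 3′-UTRs of 432 (*Spp1*) to 3747 bases (*Ccn4*), held neither string of letters. In *Fn1*, both matches were present in 7 of the 8 coding transcripts with an annotated 3′-UTR.

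**Figure D1:**
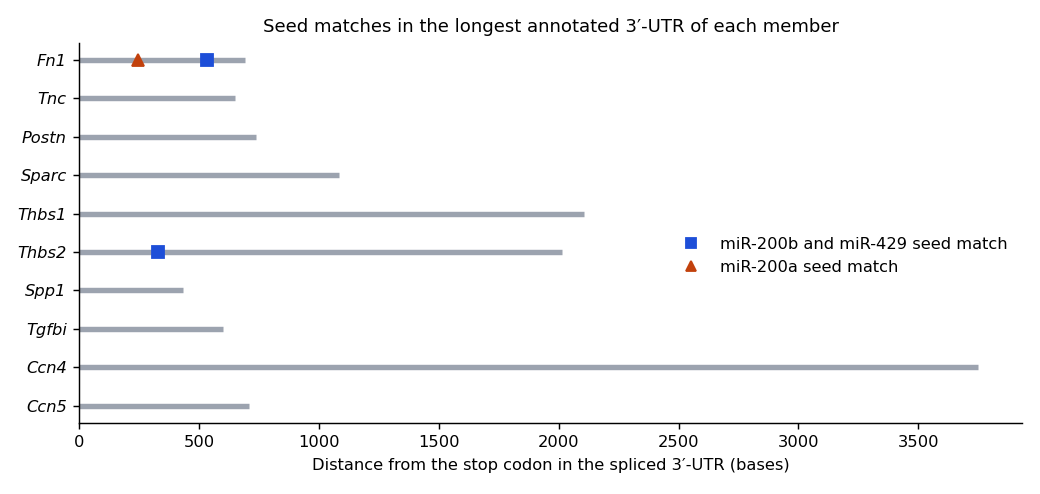
The longest annotated 3′-UTR of each of the 10 genes is drawn to scale in bases from the stop codon, with squares for matches to the seed shared by miR-200b and miR-429 and triangles for matches to the miR-200a seed. *Fn1* carries 1 of each, *Thbs2* carries 1 square, and the other 8 bars carry none.

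The deposited values are CPM, scaled to a common total per sample, with 1 value per gene, so isoforms such as those of fibronectin were not separated. The sequencing depth behind them is unknown. Genes at exactly 0 numbered 6127 in each CAF-200 column, against 7898 and 7413 in CAF-vec 1 and 2. Some CAF-200 values lay far below the commonest low value of 0.0105 CPM, such as *Ptprc* at 1e-04 CPM in CAF-200 2 and 3. The values are therefore not simply scaled reads. How they were adjusted is not given in the sources used here, so spreads and *p* values describe the deposited values. The SD of the log2 difference across genes was 0.49 for the pair of CAF-vec samples and 0.192 to 0.204 for pairs of CAF-200 samples. CAF-vec 1 was farther from the CAF-200 samples (0.688 to 0.735) than CAF-vec 2 was (0.523 to 0.564). In the cell type check, all 9 fibroblast markers were detected, with sums of 14150 and 7457 CPM for CAF-vec 1 and 2 and 6609 to 7302 CPM for the CAF-200 samples, whereas the 6 epithelial markers summed to at most 0.421 CPM. CAF-vec 1 and 2 had 43.5 and 50.7 CPM of *Zeb1*, and CAF-200 1 to 3 had 37.8, 37.5 and 34.1 CPM (difference of -0.36 in log2, adjusted *p* = 0.0504, limma), and the groups of *Zeb2* overlapped (-0.23, adjusted *p* = 0.374, limma).

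Compared per length, as CPM per kilobase of annotated exons, the 10 genes differed widely in level. The length was the union of all annotated exons of a gene, such as 8702 bases for *Postn* and 11685 for *Fn1*. It can exceed the length of the transcripts expressed, so the order of genes depends on this choice. *Thbs1*, which encodes thrombospondin-1, a secreted inhibitor of angiogenesis and activator of latent TGF-β, had the highest level in CAF-vec, at 893 and 811 CPM per kilobase. *Sparc*, which encodes a collagen-binding glycoprotein, followed at 686 and 422 CPM per kilobase. *Spp1* (183 and 207) and *Ccn5* (203 and 143) came next, and the values of this pair overlapped. Below them, in an order without overlap between neighbours in CAF-vec, lay *Fn1*, *Thbs2*, *Tnc*, *Postn*, *Ccn4* and *Tgfbi*, from 108 and 121 CPM per kilobase for *Fn1* down to 0.263 and 0.108 for *Tgfbi*. In CAF-200, *Spp1* stood first at 1122, 1059 and 1228 CPM per kilobase, above *Thbs1* at 790 to 803 and *Sparc* at 365 to 374, and the values of *Fn1* (153 to 157) lay within those of *Ccn5* (113 to 166). The remaining genes kept their places.

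**Figure D2:**
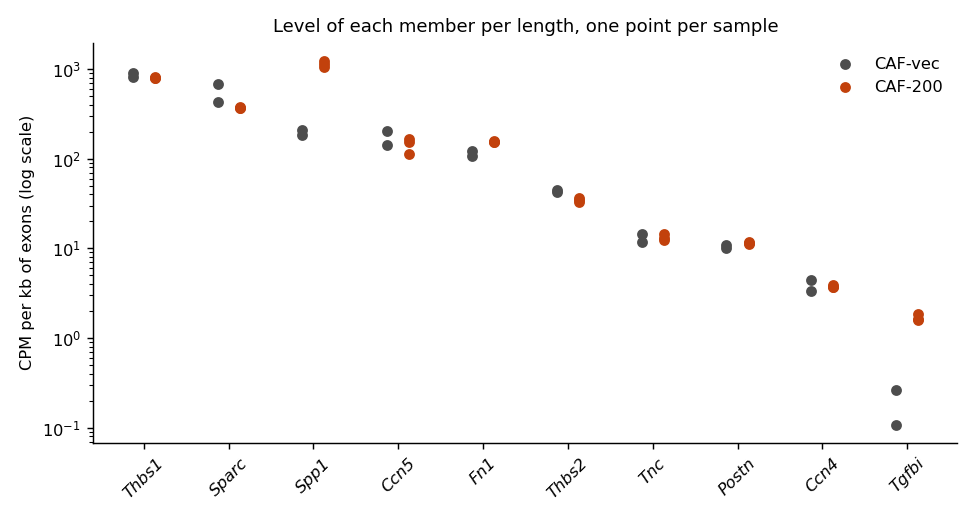
Levels are plotted in CPM per kilobase of exons on a log axis, 1 point per sample, with CAF-vec in grey and CAF-200 in orange and the genes ordered by their CAF-vec mean. *Spp1* moves from the third place in CAF-vec to the first in CAF-200, and *Tgfbi* stays last in both groups.

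Together the 10 genes made up 1.05% and 0.908% of all CPM in the CAF-vec samples and 1.06% to 1.07% in the CAF-200 samples. The make-up of that sum differed. *Thbs1* accounted for 51.6% and 54.3% of it in CAF-vec and for 44.7% to 45.8% in CAF-200. *Spp1* accounted for 2.88% and 3.75% in CAF-vec and for 16.5% to 18.9% in CAF-200.

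Of the 10 genes, 2 rose in CAF-200 and 0 fell. Fold-changes are differences of log2(CPM + 0.5), and adjusted *p* values come from limma with Benjamini-Hochberg adjustment over the 12175 genes tested. *Spp1* and *Tgfbi* were past both thresholds of the study, which are 0.01 for the adjusted *p* and 1 for the size of the log2 fold-change, against 2.37% of all genes tested that were called higher. Another 2.35% were called lower, which makes 4.72% in either direction. *Tgfbi* met the filter for testing only through CAF-200, the group where it was high. The adjusted *p* alone gave the same 2 genes, against 4.45% of all genes higher and 5.57% lower. At an unadjusted *p* under 0.05 (limma), 3 of the 10 genes were higher (*Spp1*, *Tgfbi* and *Fn1*) and 2 lower (*Sparc* and *Thbs2*), against 17.3% and 27.6% of all genes. At an adjusted *p* under 0.05, 3 genes were higher and 1 was lower, against 11.9% and 18.6% of all genes. The groups did not overlap for 7 of the 10 genes, of which 4 were higher and 3 lower in CAF-200, which was the case for 61.6% of all genes tested, 24.3% higher and 37.3% lower. The median log2 fold-change of the 10 genes was 0.0048 and that of all genes tested was -0.094.

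**Figure D3:**
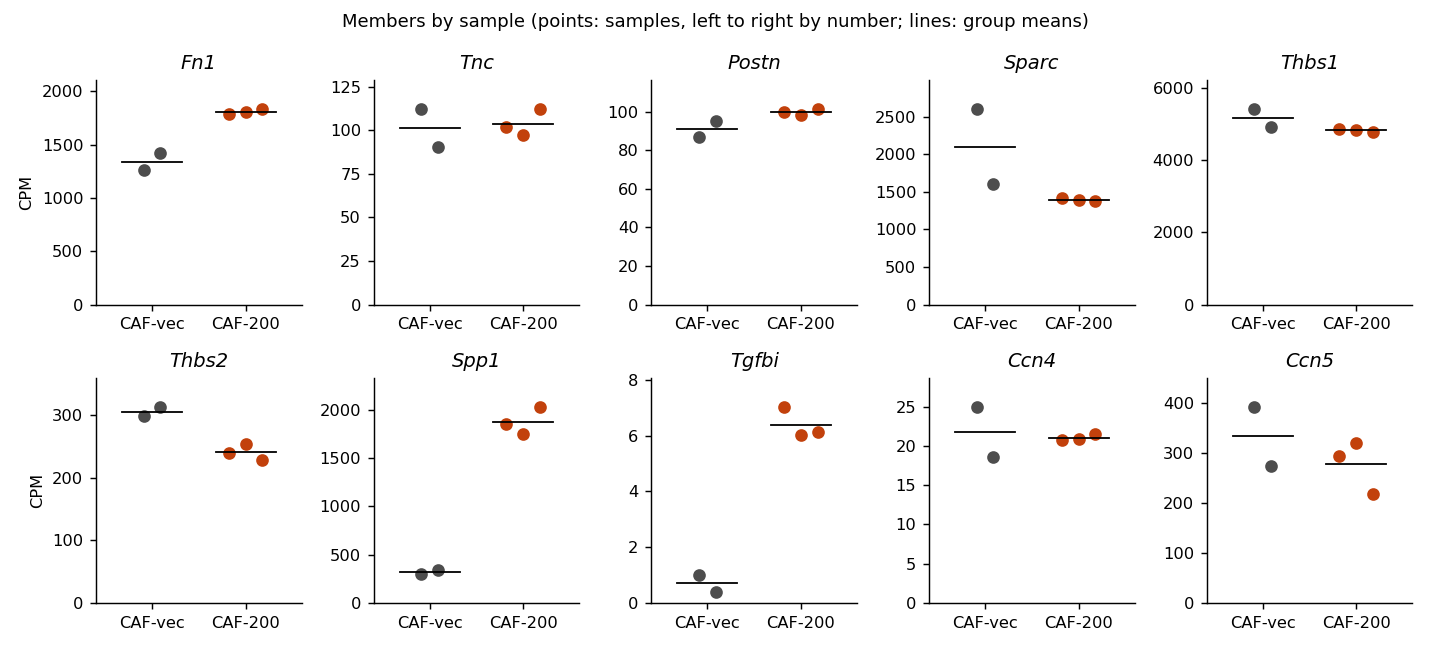
CPM of each gene is plotted by sample from 0, with CAF-vec 1 and 2 in grey, CAF-200 1 to 3 in orange and group means as lines. *Spp1* and *Tgfbi* show wide gaps between the groups, the *Fn1* points are higher and the *Thbs2* points lower in CAF-200 by smaller steps, and *Sparc* and *Ccn5* differ widely between the CAF-vec samples.

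*Spp1* encodes osteopontin, a secreted phosphoprotein that binds integrins through an RGD sequence and binds CD44. It lies on chromosome 5 of GRCm38 (104435118 to 104441050, plus strand). The values of *Spp1* were 302.0 and 340.5 CPM for CAF-vec 1 and 2, and CAF-200 1 to 3 had 1848, 1744 and 2024 CPM. Every CAF-200 sample was far above both CAF-vec samples. The group means were 321.2 ± 27.2 CPM (SD, n = 2) and 1872 ± 141 CPM (SD, n = 3), and *Spp1* rose 5.82-fold (2.54 ± 0.126 in log2, ± standard error, adjusted *p* = 9.29e-04, limma), which ranked 30 among the rises of all genes tested. Bulk RNA cannot tell more *Spp1* RNA per cell from more cells that express it. *Spp1* is also a gene of macrophages, and the 5 leukocyte markers summed to 8.34 and 9.31 CPM in the CAF-vec samples against 12.2 to 12.8 CPM with miR-200. Their part in the result was not tested. Of them *Adgre1* was at 0 in all samples, *Ptprc* was at most 0.040 CPM, *Cd68* (2.25 to 5.01 CPM) and *Csf1r* (2.29 to 4.97 CPM) overlapped between the groups, and *Lyz2* rose from 1.11 and 1.99 CPM to 6.48 to 7.48 CPM (adjusted *p* = 0.00395, limma). The annotation places an unclassified transcript, *Gm42793*, on the same strand over the start of *Spp1*, and how shared reads were assigned is not given in the sources used here. *Fn1*, *Tnc* and *Thbs1* each overlap a gene annotated on the other strand (*Apol7d*, *8030451A03Rik* and *Gm29233*), and whether the counting used the strand is likewise not given.

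*Tgfbi* encodes an integrin-binding matrix protein that was found as a gene induced by TGF-β. It lies on chromosome 13 (56609523 to 56639562, plus strand). CAF-vec 1 and 2 had 0.992 and 0.407 CPM of *Tgfbi*, and CAF-200 1 to 3 had 7.01, 6.01 and 6.12 CPM. The groups were well separated, but the level stayed low, and *Tgfbi* was the 1 gene of the 10 with less than 0.5 CPM in a CAF-vec sample. The group means were 0.700 ± 0.414 CPM (SD, n = 2) and 6.38 ± 0.549 CPM (SD, n = 3), and *Tgfbi* rose 5.90-fold on the scale with 0.5 CPM added (2.56 ± 0.230 in log2, ± standard error, adjusted *p* = 0.0029, limma). Because CAF-vec 2 was below the minimum level for testing, *Tgfbi* was tested only through CAF-200, the group where it was high. The added 0.5 CPM sets part of its fold. With 0.1 CPM added instead the log2 fold-change was 3.12, and with 1 CPM added it was 2.14.

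Neither call held with fewer CAF-200 samples. Without any 1 of the CAF-200 samples, the adjusted *p* (limma) was 0.0132 to 0.0153 for *Spp1* and 0.0223 to 0.0278 for *Tgfbi*, with log2 fold-changes of 2.48 to 2.59 and 2.50 to 2.60, and at most 1 gene of the whole table was called in these fits. Against CAF-vec 1 alone the log2 fold-changes were 2.63 and 2.20, and against CAF-vec 2 alone 2.45 and 2.92.

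*Fn1*, which encodes fibronectin, was higher in CAF-200 by a smaller step. It lies on chromosome 1 (71585520 to 71653200, minus strand). The values of *Fn1* were 1260 and 1419 CPM for CAF-vec 1 and 2, and CAF-200 1 to 3 had 1789, 1807 and 1834 CPM. Every CAF-200 sample was above both CAF-vec samples, and the CAF-200 samples were close together. The mean was 1340 ± 112 CPM (SD, n = 2) against 1810 ± 23.0 CPM (SD, n = 3), so that *Fn1* differed by 0.44 in log2 (95% interval 0.13 to 0.74, adjusted *p* = 0.0448, limma), which missed the threshold of 0.01. The message that carried matches to both miR-200 seeds was not lower in CAF-200. Without CAF-vec 1 or without CAF-vec 2, *Fn1* passed the threshold (adjusted *p* = 0.00604 and 4.86e-04, limma, log2 fold-changes 0.35 and 0.52), in fits where the lone CAF-vec sample is assumed to vary like the CAF-200 samples. Without any 1 of the CAF-200 samples its adjusted *p* (limma) was 0.173 to 0.181, and it was 0.108 with quantile normalization and 0.0896 with no filter on low values.

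Thrombospondin-1 and its close relative, the product of *Thbs2*, are trimeric glycoproteins that bind CD47, CD36 and integrins, and both inhibit angiogenesis. CAF-vec 1 and 2 had 298.3 and 312.4 CPM of *Thbs2*, and CAF-200 1 to 3 had 239.7, 253.8 and 228.4 CPM. All CAF-200 samples were below both CAF-vec samples. The mean was 305.4 ± 9.94 CPM (SD, n = 2) against 240.6 ± 12.7 CPM (SD, n = 3), so that *Thbs2* differed by -0.34 in log2 (95% interval -0.58 to -0.11, adjusted *p* = 0.0421, limma). *Thbs2* lies on chromosome 17 (14665500 to 14694235, minus strand) and, like *Fn1*, carries a match to the miR-200b seed. It passed the threshold of 0.01 without CAF-vec 1 (log2 fold-change -0.38, adjusted *p* = 0.00515, limma) and without CAF-vec 2 (-0.31, adjusted *p* = 0.00813, limma), again with 1 CAF-vec sample. Without any 1 of the CAF-200 samples its adjusted *p* (limma) was 0.123 to 0.182, and it was 0.133 with quantile normalization and 0.112 with centring.

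The values of *Thbs1* were 5420 and 4927 CPM for CAF-vec 1 and 2, and CAF-200 1 to 3 had 4880, 4851 and 4797 CPM. CAF-vec 2 was close to the CAF-200 samples, and the log2 fold-change was -0.094 (95% interval -0.47 to 0.28, adjusted *p* = 0.658, limma). After centring each sample on its median it was 0.0029. The log2 ratio of *Thbs2* to *Thbs1* within a sample does not depend on such scaling. It was -4.18 and -3.98 in CAF-vec and -4.34, -4.25 and -4.39 in CAF-200, a difference of -0.25 (*p* = 0.1, two-sided exact permutation test, the smallest *p* that 2 against 3 samples allow). The difference was -0.35 without CAF-vec 1 and -0.15 without CAF-vec 2.

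*Sparc* was lower in CAF-200, but the CAF-vec samples disagreed on its level. The level was 2599 CPM in CAF-vec 1 but 1600 CPM in its replicate CAF-vec 2, with 1417, 1387 and 1381 CPM in CAF-200 1 to 3. The CAF-vec samples differed by 0.70 on the log2 scale, more than they did for 87.6% of all genes tested, and the log2 fold-change was -0.55 (95% interval -1.09 to -0.0024, adjusted *p* = 0.11, limma). Against CAF-vec 1 alone the log2 fold-change was -0.90 (adjusted *p* = 3.67e-05, limma), and against CAF-vec 2 alone it was -0.20 (adjusted *p* = 0.0534, limma). In these fits the spread comes from the CAF-200 samples alone and leaves out the difference between the CAF-vec samples, and the fit against CAF-vec 1 called 906 genes lower and 624 higher past both thresholds, against 286 and 289 with all samples. The type I collagen genes had the same order of samples, *Col1a1* with 4613 and 2003 CPM without and 1543 to 1719 CPM with miR-200 (difference of -0.91 in log2, adjusted *p* = 0.0982, limma), and *Col1a2* with 5185 and 2567 CPM and 2048 to 2284 CPM (-0.75, adjusted *p* = 0.112, limma). The other fibrillar collagen genes in the lists went the other way, with every CAF-200 sample above both CAF-vec samples. *Col3a1* differed by 1.02 in log2 (adjusted *p* = 0.0542, limma) and *Col5a1* by 0.32 (adjusted *p* = 0.0977, limma).

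Tenascin-C and periostin, which bind fibronectin and collagen fibrils and are typical of activated fibroblasts, showed no change past the threshold. The values of *Tnc* were 112.0 and 90.3 CPM for CAF-vec 1 and 2, and CAF-200 1 to 3 had 101.9, 97.2 and 112.2 CPM, so the groups overlapped (log2 fold-change 0.042, 95% interval -0.27 to 0.36, adjusted *p* = 0.811, limma). CAF-vec 1 and 2 had 86.8 and 95.2 CPM of *Postn*, and CAF-200 1 to 3 had 99.7, 98.1 and 101.3 CPM. Its CAF-200 values were all above the CAF-vec values by a small margin (log2 fold-change 0.13, 95% interval -0.080 to 0.34, adjusted *p* = 0.275, limma). These intervals leave out a doubling or a halving (1 on the log2 scale) of either gene.

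*Ccn4* and *Ccn5* (formerly *Wisp1* and *Wisp2*) encode secreted CCN proteins, of which CCN5 lacks the C-terminal domain of its relatives. The values of *Ccn4* were 24.9 and 18.6 CPM for CAF-vec 1 and 2, and CAF-200 1 to 3 had 20.7, 20.8 and 21.5 CPM, with the CAF-200 values between those of the CAF-vec samples (log2 fold-change -0.033, 95% interval -0.37 to 0.31, adjusted *p* = 0.865, limma). With quantile normalization this became 0.063, and with centring 0.064. CAF-vec 1 and 2 had 390.5 and 274.5 CPM of *Ccn5*, and CAF-200 1 to 3 had 294.0, 318.8 and 217.3 CPM, which overlapped (log2 fold-change -0.26, 95% interval -0.82 to 0.29, adjusted *p* = 0.402, limma). Without CAF-vec 1 the value was -0.0070, without CAF-vec 2 it was -0.52 (adjusted *p* = 0.0384, limma), and without CAF-200 3 it was -0.097. *Ccn5* was the most variable of the 10 genes within CAF-200, where its samples spanned 0.55 on the log2 scale against 0.025 for *Thbs1*. The log2 ratio of *Ccn5* to *Ccn4* differed by -0.23 between the groups, which overlapped (*p* = 0.5, two-sided exact permutation test), and by -0.35 without CAF-200 2 and -0.047 without CAF-200 3.

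**Figure D4:**
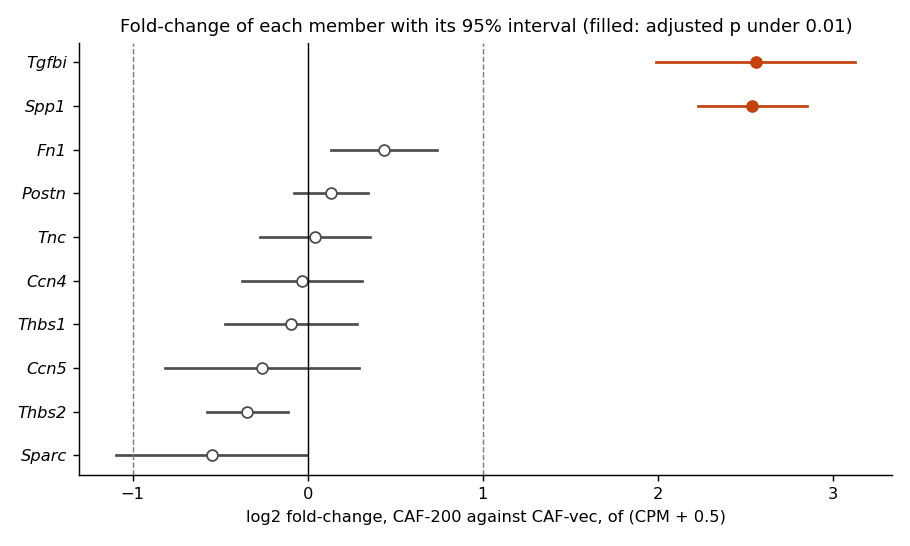
The log2 fold-change of each gene in CAF-200 against CAF-vec is plotted with its 95% interval from limma, with filled points at an adjusted *p* under 0.01 and dashed lines at -1 and 1. *Tgfbi* (2.56) and *Spp1* (2.54) lie beyond 1, and the other 8 genes lie between -0.55 and 0.44.

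Among the 9 relatives of the 10 genes that were tested, 2 rose and 2 fell at an adjusted *p* under 0.01 (limma), where 4.45% of all genes were higher and 5.57% lower. *Tnxb*, which encodes tenascin-X, was the 1 other tenascin expressed highly enough to be tested, and it fell by 1.29 on the log2 scale, with 1.94 and 1.61 CPM in CAF-vec 1 and 2 and 0.411, 0.453 and 0.413 CPM in CAF-200 1 to 3 (adjusted *p* = 0.00452, limma). All CAF-200 values of *Tnxb* were under 0.5 CPM, so it was tested only through the group where it was high, and the added 0.5 CPM sets part of its fold. Of the 5 SPARC relatives tested, 1 rose and 1 fell past both thresholds, against 2.37% and 2.35% of all genes. The median log2 fold-change of the list was -0.038. *Sparcl1* missed the threshold for the adjusted *p*, at 4.66 and 6.50 CPM in CAF-vec 1 and 2 and lower values of 2.11, 2.89 and 2.28 CPM in CAF-200 1 to 3 (-1.05 in log2, adjusted *p* = 0.0136, limma). *Smoc2* fell by 1.67 on the log2 scale, from 52.7 and 55.5 CPM to 15.5, 16.7 and 17.8 CPM (adjusted *p* = 0.0013, limma). *Smoc1*, its close paralog among the calcium-binding matrix proteins, rose by 1.31, from 19.8 and 20.2 CPM to 52.1, 48.5 and 50.7 CPM (adjusted *p* = 0.00145, limma). Of the 2 CCN relatives tested, *Ccn1*, an integrin-binding protein, rose from 666.1 and 603.4 CPM to 1100, 1049 and 1116 CPM (log2 fold-change 0.78, adjusted *p* = 0.00755, limma), and *Ccn2* overlapped between the groups (0.27, adjusted *p* = 0.214, limma). *Thbs3* was the 1 other thrombospondin tested (-0.29, adjusted *p* = 0.367, limma), and none of the 4 osteopontin relatives reached the level for testing.

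Among 16 receptors tested, 1 rose and 0 fell at an adjusted *p* under 0.01, against 4.45% and 5.57% of all genes, so the count was near that of all genes. Their median log2 fold-change was 0.11, beside -0.094 for all genes. The one that rose was *Cd44*, a receptor for hyaluronan and osteopontin, with 55.3 and 69.6 CPM in CAF-vec 1 and 2 and 130.7, 124.7 and 156.1 CPM in CAF-200 1 to 3 (log2 fold-change 1.13, adjusted *p* = 0.00619, limma). All CAF-200 values of *Cd44* were above the CAF-vec values, as for its ligand gene *Spp1*. Of the main fibronectin receptor, *Itgb1* differed by 0.55 in log2 (adjusted *p* = 0.0161, limma) and *Itga5* by 0.090 (adjusted *p* = 0.484, limma). None of the receptors was called lower by limma. At an unadjusted *p* under 0.05, 7 of the 16 were higher and 1 was lower, against 17.3% and 27.6% of all genes. The lower one was *Itga8*, at 0.733 and 0.739 CPM against 0.223 to 0.311 CPM, and it too was tested only through its CAF-vec values. Of the higher ones, *Itgb3* had 0.636 and 0.468 CPM in CAF-vec 1 and 2 and 1.38, 1.05 and 1.82 CPM in CAF-200 1 to 3. It was tested only through CAF-200, the group where it was high. The receptors *Cd36*, *Itga4* and *Ptprz1* were at 0 in all samples.

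Of 11 matrix partners tested, 4 rose at an adjusted *p* under 0.01 and 0 fell, against 4.45% and 5.57% of all genes, and their median log2 fold-change was 0.32. At an unadjusted *p* under 0.05 (limma), 6 were higher and 3 lower, against 17.3% and 27.6% of all genes. *Efemp1*, which encodes fibulin-3, rose from 12.98 and 23.9 CPM to 120.8, 112.3 and 102.8 CPM (log2 fold-change 2.63, adjusted *p* = 0.00318, limma). *Tgm2*, the transglutaminase that cross-links fibronectin, rose by 1.32 in log2 (adjusted *p* = 0.00255, limma), and *Tll1*, a procollagen protease, rose by 1.13 (adjusted *p* = 0.00795, limma). *Fbn1*, the fibrillin gene, rose by 0.80 (adjusted *p* = 0.00352, limma). Among 9 TGF-β ligands, receptors and SMADs, 2 rose and 2 fell at an adjusted *p* under 0.01, against 4.45% and 5.57% of all genes. Their median log2 fold-change was -0.20. The ligands *Tgfb2* (log2 fold-change -1.37, adjusted *p* = 0.00254, limma) and *Tgfb3* (-0.68, adjusted *p* = 0.00991, limma) fell, whereas the inhibitory *Smad7* (1.17, adjusted *p* = 0.00321, limma) and the receptor gene *Tgfbr1* (0.81, adjusted *p* = 0.00505, limma) rose. The third ligand gene, *Tgfb1*, did not pass that threshold, at 19.8 and 17.9 CPM in CAF-vec 1 and 2 and higher values of 28.7, 24.7 and 31.8 CPM in CAF-200 1 to 3 (difference of 0.57 in log2, adjusted *p* = 0.0248, limma).

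**Figure D5:**
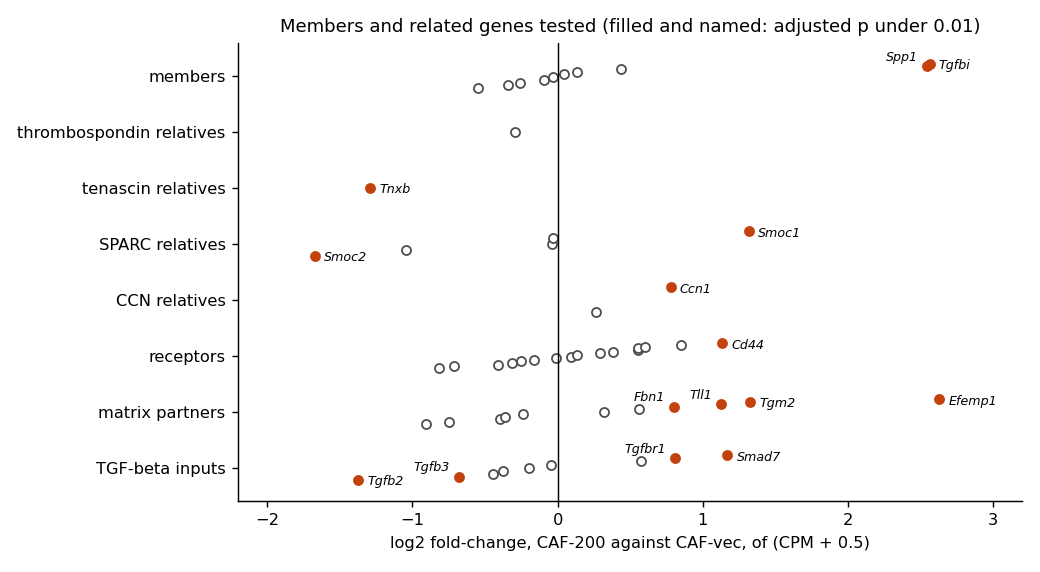
Each point is 1 tested gene, placed by its log2 fold-change in CAF-200 against CAF-vec and grouped by list, with the 10 genes in the top row, and genes at an adjusted *p* under 0.01 (limma) are filled and named. The receptors and matrix partners have filled points only on the right, and the SPARC relatives and TGF-β genes have them on both sides.

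The gene with the nearest profile is given for 9 of the 10 genes, by the distance between mean-centred log2 values over the 5 samples, as a description. For *Spp1* it was *Npnt*, which encodes nephronectin, at 12.9 and 15.6 CPM in CAF-vec 1 and 2 and 81.5, 80.6 and 88.0 CPM in CAF-200 1 to 3 (distance 0.0981). For *Tgfbi* it was *Plac8*, at 34.4 and 22.8 CPM and 186.9, 178.5 and 158.8 CPM (distance 0.18). The nearest profile was that of *Tbx18* for *Fn1*, *B3gnt2* for *Thbs2*, *Mien1* for *Sparc*, *Morc2a* for *Tnc*, *Nudcd1* for *Postn*, *Gse1* for *Ccn4* and *Nadsyn1* for *Ccn5*, with distances from 0.019 to 0.152. With 12175 genes and 5 samples in 2 groups, near profiles are to be found for most patterns.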

How the data were processed

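Libraries were stranded mRNA, sequenced as paired ends. The processing notes of the submitters name FastQC, cutadapt, Trimmomatic, STAR, RSEM and edgeR with the builds GRCm38 and mm10, and settings are not given in the sources used here. The authors deposited CPM values in a table named for TMM, whose columns sum to between 999956 and 1000111. Within 0.05 of a whole number, 16.6% to 42.1% of low values were multiples of the commonest low value in their column, so reads were not recovered and no count test was run. All 5 sample columns were used and 0 were left out.

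A gene was tested where 2 or more samples reached 0.5 CPM. The groups were set against each other on the scale log2(CPM + 0.5) by limma (version 3.58.1, R version 4.3.3), with a trend in the variance and Benjamini-Hochberg adjustment. The thresholds were those of the study, 0.01 for the adjusted *p* and 1 for the size of the log2 fold-change. Names, positions, exon lengths and 3′-UTRs were matched by Ensembl identifier to GENCODE M21 (GRCm38), which names 21795 genes of the table, the 10 genes included. The 10 genes and the lists of related genes were chosen with earlier results of these data known. Named beside them were genes of the lists past both thresholds, up to 4 more per list at an adjusted *p* under 0.01, and the nearest profile of each gene, which for *Thbs1* is not reported here. *Ccn2*, *Thbs3*, *Sparcl1*, *Col1a1*, *Col1a2*, *Col3a1*, *Col5a1*, *Itgb1*, *Itgb3*, *Itga5*, *Itga8* and *Tgfb1* were named after their values were seen, as were the leukocyte markers and the receptors at 0. Of the other marker lists, the 5 endothelial genes summed to at most 1.06 CPM and the 4 mural genes to 5.95 to 8.55 CPM. Of the 9 fibroblast markers, 3 (*Dcn*, *Lum* and *Thy1*) rose and 0 fell past both thresholds, against 2.37% and 2.35% of all genes. The log2 fold-change was above 0 for 4 of the 9 and below 0 for 5, with a median of -0.20.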

Additional observations from a re-analysis of the deposited data

How the results depend on the processing

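Alternatives were another pseudocount, filter, scaling, variance model or threshold, each sample left out, and the replicate number as a block. Count tests were not run, because whole reads could not be recovered. The 2 genes higher past both thresholds, and at an adjusted *p* under 0.01 alone, became 1 with at least 1 CPM required in every sample, under which *Tgfbi* was not tested. With a sample left out they ranged from 0 to 2 past both thresholds and from 0 to 3 at the adjusted *p* alone. The 0 genes lower past both thresholds stayed at 0 in all alternatives. The 0 genes lower at an adjusted *p* under 0.01 became 1 at 0.05 and ranged from 0 to 2 with a sample left out (limma, with 2 at an unadjusted *p* under 0.05 in the full fit). Small differences changed sign. *Thbs1* was 0.0029 after centring, *Ccn4* was 0.063 after quantile normalization and 0.064 after centring and ranged from -0.24 to 0.17 with a sample left out (above 0 without CAF-vec 1), and *Tnc* ranged from -0.11 to 0.20 with a sample left out (below 0 without CAF-vec 2 and without CAF-200 3). The cause was not tested.

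Numbers 1 and 2 occur in both groups, and the deviations of same-numbered samples from their group means had correlations of 0.249 and 0.134. With 2 pairs and no label that ties a number to a culture or day, the numbers were not taken to pair the samples, and whether they do was not settled. With the replicate block *Spp1* was 2.48 (adjusted *p* = 0.00565, limma), *Tgfbi* 2.59 (adjusted *p* = 0.00408, limma), and *Tnc* -0.015. *Fn1* (0.43, adjusted *p* = 0.283, limma) and *Thbs2* (-0.31, adjusted *p* = 0.271, limma), which were under 0.05 without the block, were not with it. The counts of the 10 genes past the thresholds stayed at 2 higher and 0 lower. CAF-200 3 has no partner in the block fit and does not enter its fold-changes, which rest on the 2 pairs. The ratio of *Thbs2* to *Thbs1* differed by -0.22 and that of *Ccn5* to *Ccn4* by -0.047 with the pairing. In the whole table, 286 genes lower and 289 higher past both thresholds became 70 and 101. *Spp1* had an adjusted *p* (limma) of 3.55e-06 to 0.0153 over its alternatives, *Tgfbi* of 1.59e-05 to 0.0278, *Fn1* of 4.86e-04 to 0.283, *Thbs2* of 0.00515 to 0.271 and *Sparc* of 3.67e-05 to 0.264.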
